A study of Mus musculus with 7 samples.

Results

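Toll-like receptors, the NOD receptors and the proteins that bind them were examined in mature white adipocytes of mice lacking FFA2 in adipocytes. The 10 genes are Nod1, Nod2, Ripk2, Tlr2, Tlr4, Tlr7, Tlr13, Cd14, Ly96 and Myd88, chosen by symbol among the 57010 gene identifiers of the deposited count table. Each matched 1 identifier, and all 10 were among the 17039 genes that passed the filter on low counts. RNA was sequenced from perigonadal adipocytes freed by collagenase, in 3 libraries of FFA2 fl/fl mice and 4 of Adipoq-F2-KO mice. The FFA2 fl/fl controls carry floxed FFA2 alleles without Cre. The Adipoq-F2-KO mice carry the same alleles and a Cre transgene under the adiponectin promoter, which is active in adipocytes, so the transgene and the loss of FFA2 cannot be told apart here. All were male littermates housed together on standard chow (Teklad LM-485) and killed at 20 weeks of age by the labels, while the methods of the study give a later age for its chow cohort. The strain background, and whether a library came from a single mouse or a pool, are not given in the sources used here, so the p-values measure the spread between these libraries.

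Pattern-recognition receptors detect microbial products and products of damaged tissue. Toll-like receptors span the membrane: TLR2 binds bacterial lipoproteins, TLR4 binds lipopolysaccharide with its co-receptors CD14 and MD-2, and TLR7 and TLR13 bind single-stranded and bacterial ribosomal RNA in endosomes. NOD1 and NOD2 lie in the cytosol and bind fragments of the bacterial cell wall. MyD88 is the adaptor of most Toll-like receptors and RIPK2 the kinase of both NOD receptors, and both routes lead to NF-kB and cytokine genes. Adipocytes are known to carry TLR4, TLR2 and NOD1, and macrophages carry most of these receptors.

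The start of Tlr2 and the starts of Nod2 and Myd88 are shown because Nod2 and Tlr2 had the largest differences between the genotypes below and Myd88 among the smallest. The sequences are from RefSeq (GRCm38.p6), from which the promoters of 5 of the 10 genes were read (Nod1, Nod2, Tlr2, Tlr13 and Myd88). They run 5′ to 3′ on the strand of the gene from 250 bases before the RefSeq start and end where the first annotated transcript begins. Capitals mark a match to the kappaB consensus in Tlr2 and to the interferon-stimulated response element core, a pair of GAAA repeats with any 2 bases between them, in Myd88, and Nod2 has none in its window.
Nod2, chr8:88647097-88647314, plus strand: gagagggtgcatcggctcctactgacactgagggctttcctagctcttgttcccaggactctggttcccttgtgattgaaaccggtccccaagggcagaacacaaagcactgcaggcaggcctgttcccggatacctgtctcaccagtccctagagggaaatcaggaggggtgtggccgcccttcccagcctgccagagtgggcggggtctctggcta
Tlr2, chr3:83841768-83841858, minus strand: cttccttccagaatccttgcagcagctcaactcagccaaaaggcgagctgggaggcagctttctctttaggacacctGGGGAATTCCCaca
Myd88, chr9:119340042-119340268, minus strand: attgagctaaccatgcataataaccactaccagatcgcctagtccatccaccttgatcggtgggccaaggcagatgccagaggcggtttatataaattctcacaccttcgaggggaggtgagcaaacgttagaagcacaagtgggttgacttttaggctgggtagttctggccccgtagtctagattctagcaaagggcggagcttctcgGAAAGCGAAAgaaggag

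In Tlr2 the kappaB consensus matched in 2 overlapping positions, from -173 to -163, where -1 is the base before the RefSeq start. The printed Tlr2 sequence ends at -160, where the first annotated transcript begins, so the match lies next to that beginning. The search ran on to -1. The consensus was sought on both strands in the 250 bases before each start, and 7.25% of 32851 such windows hold it. The response element core lay from -40 to -31 in Myd88 and is held by 2.98% of the windows. An AP-1 site, TGANTCA (6.75% of windows), and an ETS site of the PU.1 type, GAGGAAGT (2.44%), were found in none of the windows of the 5 genes. No match is given for the other genes, Cd14 and Ripk2 among them, whose promoters were not read. A match describes letters in a window and shows no binding.

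The genotype labels were checked on the targeted gene. Ffar2 had 37.5, 33.9 and 32.0 normalized CPM in FFA2 fl/fl libraries 1 to 3 and 1.68, 1.15, 1.33 and 2.58 in Adipoq-F2-KO libraries 1 to 4, which gave -4.36 ± 0.22 on the log2 scale (SE, edgeR adjusted p = 8.0e-06). Normalized CPM are counts relative to the library total after TMM scaling, and SE is the standard error of a log2 fold change. Total counts lay between 30478997 and 39992605, at which a gene without counts could still have up to 0.150 to 0.197 CPM in a library (3 fragments, or 6 counts where both mates are counted, by counting error alone). Counts of the mitochondrial chromosome took 4.41% to 5.77% in the controls and 6.61% to 10.3% in Adipoq-F2-KO libraries, without overlap. With the mitochondrial genes and the identifier ENSMUSG00000119584 left out of the counts, edgeR still called Nod2 and no other of the 10 genes (log2 fold change 1.72, adjusted p = 0.0400). Adipocyte markers were abundant in every library, with a summed level of 10 genes between 32847 and 47762 normalized CPM.

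Of the 10 genes, 1 was called between the genotypes, Nod2, which was higher in Adipoq-F2-KO adipocytes. Calls are those of edgeR's quasi-likelihood test with Benjamini-Hochberg adjustment over all tested genes, at an adjusted p under 0.05, by which 1.02% of genes were called, 0.798% as higher. All 10 fold changes were above 0, against 50.4% of tested genes, with a median log2 fold change of 0.50 against 0.00 over all tested genes. The 10 genes were chosen with earlier results of these data known, so this contrast is a description and no test of the set. DESeq2 called 4 of the 10 (Nod2, Ripk2, Tlr2 and Cd14), against 6.21% of its tested genes, 4.67% as higher. With the filter lowered to at least 1 count, edgeR called the same 4, against 4.92% of genes, 3.76% as higher. At an unadjusted p under 0.05, 5 of the 10 were higher (Nod2, Ripk2, Tlr2, Cd14 and Nod1), against 10.5% of tested genes. For Nod1, Nod2, Ripk2, Tlr2 and Ly96 every Adipoq-F2-KO library lay above every FFA2 fl/fl library, as it did for 8.86% of tested genes (17.6% did not overlap in either direction). Ly96 was apart by a narrow margin and overlapped when CPM were taken from library totals, which left 4 of the 10. In such bulk libraries, a change in the number of cells of a type and a change in the RNA of each cell cannot be told apart.

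**Figure D1:**
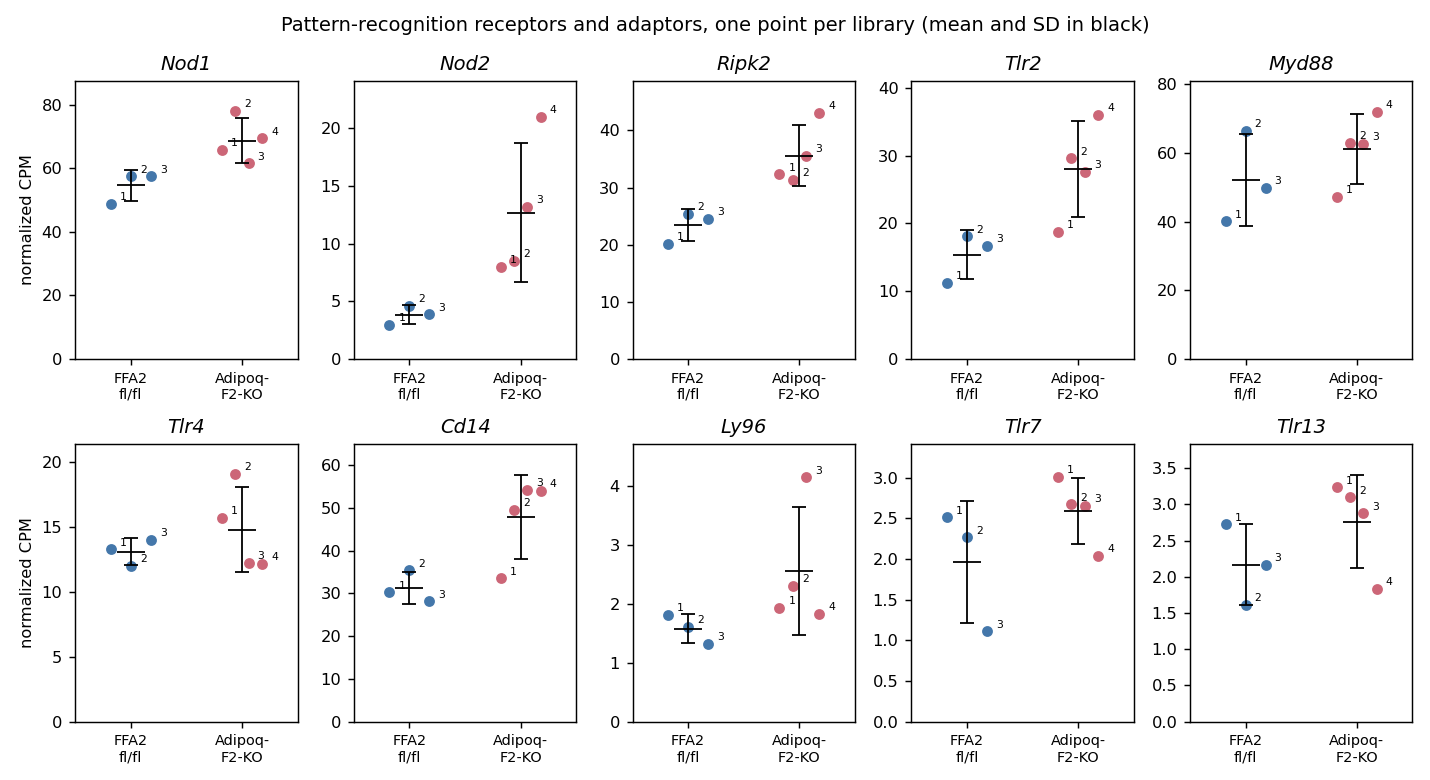
Normalized CPM (y axis, linear from 0) of each of the 10 genes in the 3 FFA2 fl/fl (blue) and 4 Adipoq-F2-KO libraries (red), numbered by replicate, with the mean and SD in black. Nod2 lay between 2.99 and 4.64 in the controls and between 7.98 and 21 in Adipoq-F2-KO libraries, while the ranges of Tlr4, Tlr7, Tlr13, Cd14 and Myd88 overlap.

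Among the NOD receptors and their kinase, Nod2 (ENSMUSG00000055994, chromosome 8 from 89373943 to 89415102 in the coordinates of the deposited table) encodes the receptor for muramyl dipeptide. It had 112, 184 and 132 counts in FFA2 fl/fl libraries and 318, 281, 476 and 619 in Adipoq-F2-KO libraries, or 2.99, 4.64 and 3.87 against 7.98, 8.54, 13.2 and 21 normalized CPM. The 4 Adipoq-F2-KO libraries spread more than the controls, with libraries 3 and 4 above libraries 1 and 2, and the lowest of them was above all controls. Counts of the mitochondrial chromosome took 7.82%, 6.61%, 9.24% and 10.3% of Adipoq-F2-KO libraries 1 to 4, highest in libraries 3 and 4 as well. The identifier ENSMUSG00000119584 took 6.76% of library 4 and 0.619% to 3.75% of the other 6, and the part of either in the spread of Nod2 was not tested. The mean of the 4 libraries, 12.7 ± 6.02 (SD), was 3.31-fold that of the 3 controls, 3.83 ± 0.824 (SD), and the log2 fold change was 1.72 ± 0.33 (SE, edgeR adjusted p = 0.0411). An exact permutation test (two-sided) on the means gave p = 0.0857, where 3 libraries against 4 cannot give less than 0.0286.

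The call of Nod2 depended on single libraries while its direction did not. When single libraries were dropped, its log2 fold change stayed between 1.37 and 1.89. It was called without Adipoq-F2-KO library 1 (adjusted p = 0.0312) or library 4 (adjusted p = 0.0346). It was not called without FFA2 fl/fl library 1 (adjusted p = 0.210), 2 (0.0669) or 3 (0.161), or without Adipoq-F2-KO library 2 (0.0570) or 3 (0.0740), all from edgeR.

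Ripk2 (ENSMUSG00000041135, chromosome 4 from 16122733 to 16163647) encodes the kinase recruited by both NOD receptors. Its normalized CPM were 20.2, 25.4 and 24.6 in the controls and 32.3, 31.3, 35.5 and 43.1 in Adipoq-F2-KO libraries. The genotypes were well apart, with the lowest Adipoq-F2-KO library above the highest control, and library 4 was again the highest. The log2 fold change was 0.60 (standard error 0.14), and with an adjusted p of 0.0588 the gene was not called by edgeR. The exact permutation test gave p = 0.0286, the smallest possible with 3 and 4 libraries, and DESeq2 called the gene (adjusted p = 0.00367).

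Nod1 (ENSMUSG00000038058, chromosome 6 from 54900934 to 54949597), the receptor for meso-diaminopimelic acid peptides of Gram-negative cell walls, had more counts than Nod2 or Ripk2 in every library. It had 48.9, 57.5 and 57.5 normalized CPM in the controls and 65.9, 78.1, 61.5 and 69.5 in Adipoq-F2-KO libraries. The groups did not overlap, although Adipoq-F2-KO library 3 lay close to the controls. The difference was small, 54.6 ± 4.97 (SD, n = 3) against 68.7 ± 7.01 (SD, n = 4), or 0.33 ± 0.11 on the log2 scale (SE, edgeR adjusted p = 0.149).

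Because Nod1 and Nod2 are read in the same library, their ratio needs no scaling between libraries. In counts per base of exon, Nod2 stood at 0.0620, 0.0816 and 0.0682 of Nod1 in FFA2 fl/fl libraries and at 0.123, 0.111, 0.217 and 0.306 in Adipoq-F2-KO libraries. Against Ripk2 the ratios were 0.0832, 0.103 and 0.0884, then 0.139, 0.153, 0.208 and 0.274. In both ratios all 4 Adipoq-F2-KO libraries were above all controls, so Nod2 differed by more than Nod1 and Ripk2 did. These ratios, and those to Tlr4 given further on, were chosen after the values were seen and are given as a description, without a test.

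Among the receptors at the cell surface, Tlr2 (ENSMUSG00000027995, chromosome 3 from 83743579 to 83749074), whose promoter with the kappaB match is printed above, had 11.3, 18.1 and 16.7 normalized CPM in FFA2 fl/fl libraries. It had 18.8, 29.6, 27.6 and 36.0 in Adipoq-F2-KO libraries. Adipoq-F2-KO library 1 was only just above the highest control, and the other 3 were well above it. The means were 15.4 ± 3.61 (SD, n = 3) and 28.0 ± 7.12 (SD, n = 4), and the log2 fold change was 0.87 ± 0.22 (SE, edgeR adjusted p = 0.0807). Tlr2 was not called by edgeR and was called by DESeq2 (adjusted p = 0.00392). Without Adipoq-F2-KO library 1 it was called by edgeR too, at 1.02 on the log2 scale (adjusted p = 0.0409).

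Tlr4 (ENSMUSG00000039005, chromosome 4 from 66745821 to 66848521), the signaling receptor for lipopolysaccharide, showed no detectable difference. Its normalized CPM were 13.2, 12.0 and 14.0 in the controls and 15.7, 19, 12.2 and 12.1 in Adipoq-F2-KO libraries. Adipoq-F2-KO libraries 3 and 4, the highest for Nod2, were within the range of the controls. The log2 fold change was 0.18 ± 0.17 (SE, edgeR adjusted p = 0.631), and DESeq2 did not call it (adjusted p = 0.671). Leaving out single libraries moved the log2 fold change to between 0.04 and 0.26.

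The co-receptor Cd14 (ENSMUSG00000051439, chromosome 18 from 36858120 to 36859851), which hands lipopolysaccharide to the TLR4 complex, had 30.2, 35.4 and 28.1 normalized CPM in FFA2 fl/fl libraries. In Adipoq-F2-KO libraries it had 33.6, 49.6, 54.3 and 53.9. Adipoq-F2-KO library 1 lay within the controls, and the other 3 were above all of them. The log2 fold change was 0.61 ± 0.16 (SE, edgeR adjusted p = 0.0960, not called). DESeq2 called the gene (adjusted p = 0.0102), as did edgeR without Adipoq-F2-KO library 1 (adjusted p = 0.0239).

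Ly96 (ENSMUSG00000025779, chromosome 1 from 16758275 to 16779835) encodes MD-2, the subunit of the TLR4 complex that holds lipid A. It was among the rarest of the 10 transcripts in counts, at 68, 64 and 45 in the controls and 77, 76, 150 and 54 in Adipoq-F2-KO libraries. Scaled to normalized CPM, these were 1.82, 1.61 and 1.32 against 1.93, 2.31, 4.15 and 1.83. Library 3 was apart from the other Adipoq-F2-KO libraries, which lay close to the controls. The log2 fold change of 0.69 ± 0.36 (SE, edgeR adjusted p = 0.347) became 0.35 without that library.

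Tlr4 was set beside Tlr2, its co-receptors and Myd88 within each library. Per base of exon, Cd14 stood at 7.32, 9.46 and 6.44 times Tlr4 in FFA2 fl/fl libraries and at 6.88, 8.35, 14.2 and 14.2 times in Adipoq-F2-KO libraries. Tlr2 stood at 1.57, 2.78 and 2.20 times Tlr4, then at 2.21, 2.86, 4.17 and 5.47 times. Both ratios were highest in Adipoq-F2-KO libraries 3 and 4 and overlapped between the genotypes. Ly96 stood at 0.746, 0.732 and 0.512 times Tlr4, then at 0.671, 0.660, 1.85 and 0.821 times. Myd88 stood at 6.52, 11.9 and 7.68 times Tlr4, then at 6.51, 7.12, 11.04 and 12.8 times, and these ratios overlapped too.

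The endosomal receptors were rare. Tlr7 (ENSMUSG00000044583, chromosome X from 166087925 to 166113554) had 2.51, 2.27 and 1.11 normalized CPM in the controls and 3.01, 2.67, 2.65 and 2.04 in Adipoq-F2-KO libraries. Tlr13 (ENSMUSG00000033777, chromosome X from 105186810 to 105204099) had 2.72, 1.61 and 2.17, then 3.24, 3.10, 2.88 and 1.83. In both genes the ranges overlapped, and Adipoq-F2-KO library 4, the highest for Nod2, Ripk2, Tlr2 and Myd88, was the lowest of its genotype. The log2 fold changes were 0.40 for Tlr7 (standard error 0.34, adjusted p = 0.572) and 0.35 for Tlr13 (standard error 0.31, adjusted p = 0.595, both from edgeR). With 38 to 129 counts in a library, a difference of this size was not detectable at this depth and spread. Leaving out single libraries moved the log2 fold change of Tlr7 to between 0.13 and 0.61 and that of Tlr13 to between 0.18 and 0.55.

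Myd88 (ENSMUSG00000032508, chromosome 9 from 119165000 to 119170477), the shared adaptor, had 40.03, 66.4 and 49.9 normalized CPM in the controls and 47.3, 62.9, 62.6 and 71.9 in Adipoq-F2-KO libraries. The groups overlapped broadly, and FFA2 fl/fl library 2 was higher than 3 of the 4 Adipoq-F2-KO libraries. The log2 fold change was 0.23 ± 0.17 (SE, edgeR adjusted p = 0.524). It became 0.07 without FFA2 fl/fl library 1 and 0.44 without FFA2 fl/fl library 2. Of its 2576 exon bases, 290 are shared with Acaa1a on the opposite strand, and since the strand setting of the counting is not stated, some of its counts may be of that gene. None of the other 9 genes shares exon bases with another gene of the table.

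**Figure D2:**
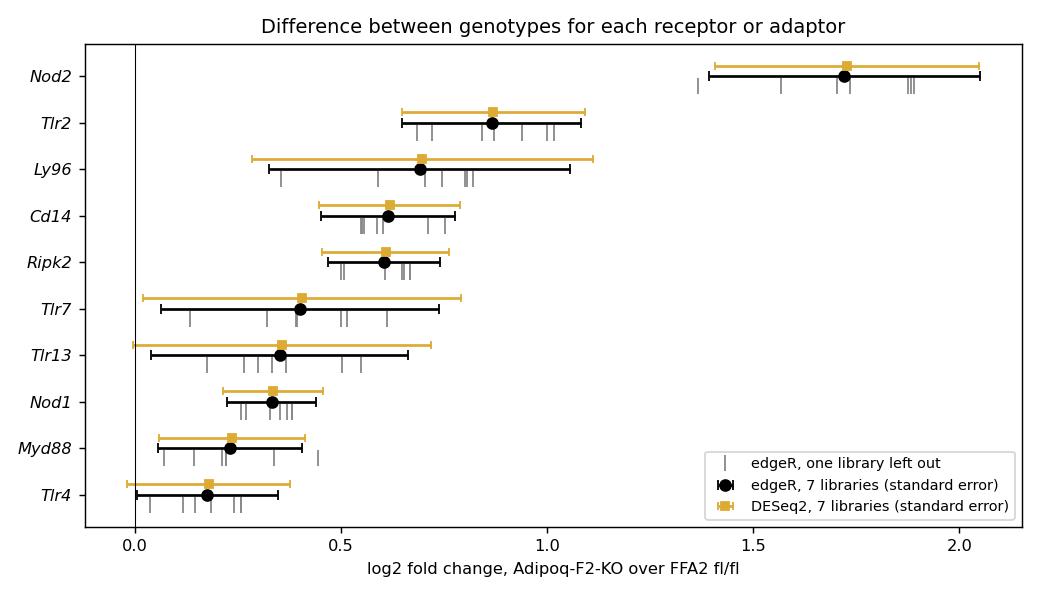
Log2 fold change, Adipoq-F2-KO over FFA2 fl/fl, of each gene from edgeR (black, with standard error), from DESeq2 (yellow, with standard error) and from edgeR with each library left out in turn (grey ticks). Nod2 was at 1.72 and between 1.37 and 1.89 with a library left out, and no fold change of the 10 genes fell below 0.

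Levels of different genes were compared per kilobase of exon. In FFA2 fl/fl adipocytes the level, in normalized CPM per kilobase, was 20.2 ± 5.17 for Myd88, 18.04 ± 2.16 for Cd14, 10.8 ± 0.979 for Nod1, 8.30 ± 0.992 for Ripk2 and 5.09 ± 1.20 for Tlr2 (SD, n = 3). Tlr4 followed at 2.35 ± 0.182, Ly96 at 1.55 ± 0.245, Nod2 at 0.764 ± 0.164, Tlr13 at 0.504 ± 0.129 and Tlr7 at 0.481 ± 0.183 (SD, n = 3). By these SDs the neighbours Myd88 and Cd14, Nod2 and Tlr13, and Tlr13 and Tlr7 could not be separated. In Adipoq-F2-KO adipocytes Cd14 at 27.6 ± 5.63 and Myd88 at 23.7 ± 3.96 (SD, n = 4) were again the highest, with overlapping SDs. Within each of these libraries Cd14 was the higher by the ratios to Tlr4 given above, while in the controls the order changed between libraries. Nod2 stood at 2.53 ± 1.20 (SD, n = 4), within the spread of Tlr4 at 2.66 ± 0.592 and Ly96 at 2.50 ± 1.06 (SD, n = 4). Tlr2 at 9.29 ± 2.36 and Ripk2 at 12.6 ± 1.89 (SD, n = 4) overlapped between libraries, but Ripk2 was the higher within each library. Nod1 at 13.5 ± 1.38 (SD, n = 4) and Ripk2 changed order between libraries.

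The tested genes whose profile over the 7 libraries was most like that of Nod2 were Tnc, Adamts4, Sele, Hmox1 and Tnf. Likeness was the root mean square difference of log2 levels centred on each gene's mean, among 13507 other genes with a mean of at least 1 normalized CPM, and it was 0.162 for Tnc and 0.229 for Tnf. Their log2 fold changes lay between 1.32 and 1.70, which follows from the choice by likeness to Nod2 in the same libraries. Nearest to Tlr4 were 4833420G17Rik, 2610002M06Rik, Rom1, Osbpl10 and Odf2, at 0.0803 to 0.0944.

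The other genes of the pathways were read from 6 lists of 79 genes, of which 72 were tested. Of these 2 were called by edgeR, both higher and both in the NOD and inflammasome lists, Nlrp3 and Birc2. Nlrp3, the sensor of the NLRP3 inflammasome and a relative of NOD2, had 8.81, 9.83 and 7.18 normalized CPM in the controls and 15.2, 17.1, 18.3 and 25.4 in Adipoq-F2-KO libraries. Like Nod2 it was lowest in the 3 controls and highest in Adipoq-F2-KO library 4. Its log2 fold change was 1.14 ± 0.19 (SE, edgeR adjusted p = 0.0332). Birc2, which encodes the ubiquitin ligase cIAP1 that acts on RIPK2, was at 33.2, 39.2 and 38.6 normalized CPM in the controls and at 47.2, 61.8, 54.7 and 61.8 in Adipoq-F2-KO libraries. It rose without overlap, by 0.61 ± 0.12 on the log2 scale (SE, edgeR adjusted p = 0.0418). With single libraries left out, Nlrp3 was called only without Adipoq-F2-KO library 1 (edgeR adjusted p = 0.0239) or 4 (0.0250), and Birc2 only without Adipoq-F2-KO library 1 (0.0262).

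Among 14 tested partners of the NOD receptors and transporters of muropeptides, 9 fold changes were above 0 and 5 below, with a median log2 fold change of 0.13. Slc15a3, a transporter that brings muramyl dipeptide out of endosomes, had 2.40, 4.94 and 3.81 normalized CPM against 7.12, 6.38, 9.90 and 9.33, with no overlap (log2 fold change 1.14). It was not called by edgeR (adjusted p = 0.0647) and was called by DESeq2 (adjusted p = 0.00364). Its relative Slc15a4 had the opposite sign, at 14.4, 14.5 and 18.8 against 11.6, 12.5, 9.87 and 10.1 (log2 fold change -0.53). Neither edgeR (adjusted p = 0.108) nor DESeq2 (adjusted p = 0.0588) called it. With the filter of at least 1 count, edgeR called both transporters, Slc15a3 as higher (adjusted p = 4.2e-04) and Slc15a4 as lower (adjusted p = 0.0354). Birc3, the sister of Birc2, had a log2 fold change of 0.76 and was called by DESeq2 (adjusted p = 0.00186) but not by edgeR (adjusted p = 0.0791). Of the 15 tested NLR and inflammasome genes, 12 fold changes were above 0, with a median of 0.88, but most were rare, and 1 was called.

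Of the Toll-like receptors outside the 10 genes, none was called. Of 8, 6 were tested and 0 called by edgeR, and 0 had an unadjusted p under 0.05 or a DESeq2 call. Tlr9, the endosomal receptor for DNA, had the smallest p, with 0.694, 1.71 and 0.293 normalized CPM against 2.21, 1.88, 1.05 and 3.19 (log2 fold change 1.20, adjusted p = 0.305, edgeR). Tlr1, which pairs with TLR2, had 11 to 13 counts in the controls and 18 to 28 in Adipoq-F2-KO libraries, or 0.294, 0.328 and 0.351 against 0.702, 0.608, 0.553 and 0.611 normalized CPM. It was the 1 gene of this list without overlap (exact permutation test, p = 0.0286), at 0.93 on the log2 scale (adjusted p = 0.449, edgeR). Tlr3, which binds double-stranded RNA, had the highest means of this list, 9.75 normalized CPM in the controls and 11.3 in Adipoq-F2-KO libraries. Tlr5 was above Tlr3 in FFA2 fl/fl library 1 and in Adipoq-F2-KO library 1. Accessory proteins had a median log2 fold change of 0.02 over 9 tested genes, other adaptors and kinases 0.03 over 19, and inhibitors 0.12 over 9, with 0 called by edgeR in each. An unadjusted p under 0.05, which 17.9% of all tested genes had, was found for 1 higher and 3 lower accessory proteins, for 2 higher and 3 lower adaptors and kinases, and for 2 higher inhibitors. DESeq2 called 0 accessory proteins, 2 adaptors and 0 inhibitors.

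Among the accessory proteins the smallest p was that of Cnpy3, a chaperone of Toll-like receptors, with 41.6, 44.8 and 45.3 normalized CPM in the controls against 36.1, 33.2, 37.9 and 30.2. All Adipoq-F2-KO libraries were below all controls, and the gene was not called (log2 fold change -0.35, adjusted p = 0.119, edgeR). The others with an unadjusted p under 0.05 were Lrrc59 (-0.29 on the log2 scale), Ap3b1 (-0.23) and Cd180, a TLR4 relative of B cells and myeloid cells (1.00, adjusted p = 0.130, edgeR). In the adaptor list the smallest p was that of Tbk1, a kinase downstream of TLR3 and TLR4 (log2 fold change 0.34, adjusted p = 0.107, edgeR). The 2 called by DESeq2 were Tbk1 (adjusted p = 0.0457) and Pik3ap1, an adaptor linked to phosphoinositide 3-kinase (adjusted p = 0.0470). The 3 adaptors with lower values at an unadjusted p under 0.05 were Tab1 (-0.42 on the log2 scale), Tab3 (-0.35) and Peli2 (-0.33), and neither edgeR nor DESeq2 called them. Among the inhibitors the smallest p was that of Zc3h12a, which encodes a ribonuclease of cytokine transcripts (log2 fold change 0.42, adjusted p = 0.184, edgeR).

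**Figure D3:**
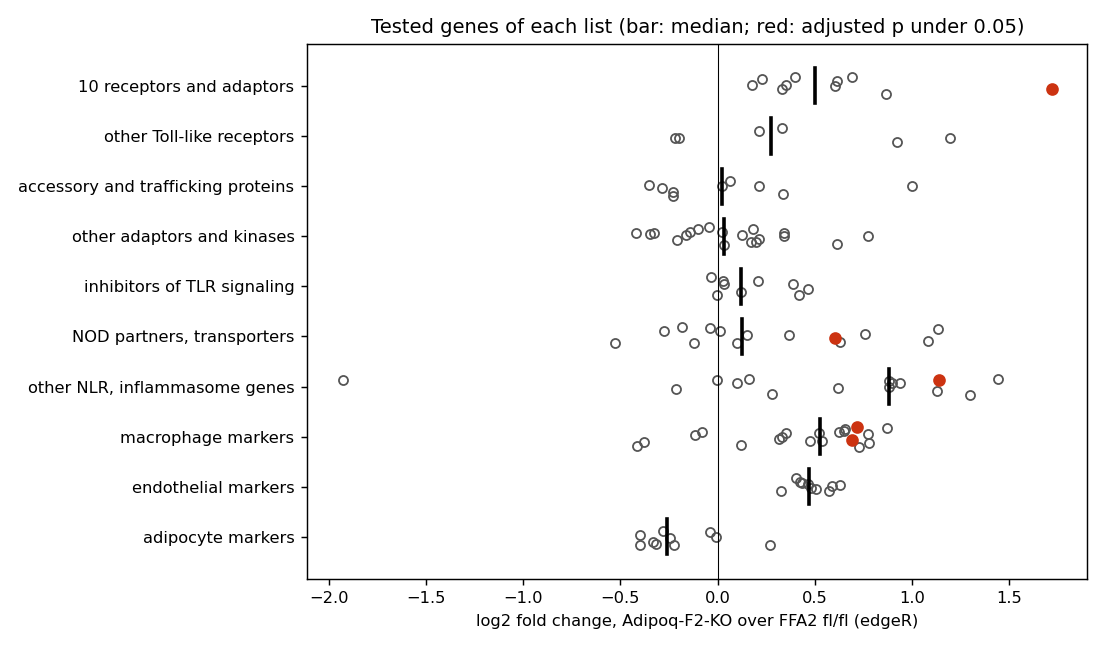
Log2 fold change (edgeR, x axis) of the tested genes in each list, 1 point per gene, with the median as a black bar and called genes in red. The 10 receptors and adaptors lie between 0.18 and 1.72 with a median of 0.50, and the other adaptors and kinases lie between -0.42 and 0.77 with a median of 0.03.

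Transcripts of macrophages, which also carry these receptors, differed between the genotypes in the same direction. Of 20 macrophage markers 16 had fold changes above 0, 2 were called as higher by edgeR (Lyz2 and Cd68) and 9 by DESeq2, and the median log2 fold change was 0.53. At an unadjusted p under 0.05, 12 were higher and 1, Mertk, was lower. Their summed level was 657 to 799 normalized CPM in the controls and 872 to 1071 in Adipoq-F2-KO libraries, highest in library 4, and each of the 20 had counts in every library. Cd74, with the highest normalized CPM, had a log2 fold change of 0.54 and was called by DESeq2 (adjusted p = 0.0150) but not by edgeR (adjusted p = 0.129). Endothelial markers were also higher, with 10 of 10 fold changes above 0, 0 called by edgeR, 4 by DESeq2, 8 at an unadjusted p under 0.05, and a summed level of 1077 to 1421 against 1494 to 2356. Cdh5, with the highest normalized CPM not scaled for length, was called by DESeq2 (adjusted p = 0.00951) but not by edgeR (adjusted p = 0.123). The part of these cells in the differences of the 10 genes was not tested beyond the ratios that follow.

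Summed levels of fibroblast progenitor markers were 941 to 1263 in the controls and 1354 to 1627 normalized CPM in Adipoq-F2-KO libraries. Those of dendritic cell markers were 19.6 to 33.9 and 34.0 to 40.9, and those of monocyte and neutrophil markers 11.8 to 12.9 and 13.0 to 20.8. Both were without overlap, but by narrow margins. Fold changes were above 0 for 7 of 7 tested dendritic cell markers. Of the 5 tested monocyte and neutrophil markers 3 were above 0 and 2 below. Ly6g, a defining neutrophil gene, had 0 counts in all 7 libraries. T cell (2.03 to 7.99 against 2.00 to 4.98), B cell (555 to 694 against 327 to 686) and mesothelial markers (10.3 to 56.3 against 10.4 to 15.0) overlapped. Genes induced by tissue dissociation overlapped too, at 11731 to 14646 against 11996 to 13321. The genes of these lists with the highest normalized CPM, not scaled for length, were in that order Col3a1, Zbtb46, Ly6c2, Lck, Ighm, Krt8 and Egr1, and neither edgeR nor DESeq2 called any of them. Of the 10 fibroblast progenitor markers 9 had fold changes above 0, 5 of them at an unadjusted p under 0.05. In these lists edgeR called 0 genes and DESeq2 called 2 as higher, Fn1 of the fibroblast progenitor list (adjusted p = 0.00148) and Ccr2 of the monocyte and neutrophil list (adjusted p = 0.0183), both without overlap.

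The summed adipocyte markers overlapped, at 42555 to 47762 normalized CPM in the controls and 32847 to 43395 in Adipoq-F2-KO libraries, but most were lower. Of the 10 markers 9 had fold changes below 0, with a median log2 fold change of -0.26, and 3 were lower without overlap. At an unadjusted p under 0.05, 4 were lower (Plin1, Cidec, Lipe and Cfd, the last with the highest control level in CPM) and 1, Pparg, was higher. None was called by edgeR, and DESeq2 called Lipe, the hormone-sensitive lipase, as lower (adjusted p = 0.00940). The part of this shift in the differences of the 10 genes was not tested.

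To set each gene beside the macrophage transcripts of its own library, the log2 ratio of its normalized CPM (plus a pseudocount of 0.1) to the summed macrophage markers was taken. For Nod2 the log2 ratio was -7.73, -7.40 and -7.54 in the controls and -6.84, -6.66, -6.24 and -5.67 in Adipoq-F2-KO libraries. All Adipoq-F2-KO libraries were above all controls, so the difference of Nod2 was larger than that of the macrophage markers. Over all tested genes, 1.73% had such a ratio above all controls in every Adipoq-F2-KO library, and 38.7% did not overlap in either direction, most of them lower. The mean difference for Nod2 was 1.20 (exact two-sided permutation test, p = 0.0286, among 10 ratios tested). For Ripk2 the log2 ratio rose by 0.19 without overlap (exact permutation test, p = 0.0286), but the groups overlapped when the mean log2 of the markers was the denominator (exact permutation test, p = 0.0857). Against Adgre1 alone, which encodes a surface receptor used to mark macrophages, Nod2 was still higher by 0.90 without overlap (exact permutation test, p = 0.0571), while Ripk2 turned to -0.11 and Myd88 to -0.46, the latter lower without overlap.

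The other 8 ratios overlapped between the genotypes. For Tlr2 the mean log2 difference was 0.45 (exact permutation test, p = 0.171), with Adipoq-F2-KO library 1 among the controls. For Cd14 it was 0.19 and for Ly96 0.19, and for Tlr7 0.04, with exact permutation p of 0.343, 0.657 and 0.914. For Nod1, Tlr13, Myd88 and Tlr4 it was -0.08, -0.07, -0.16 and -0.25, with exact permutation p of 0.629, 0.857, 0.457 and 0.400. Relative to the summed macrophage markers, a difference for these genes was thus not detectable with 3 and 4 libraries. Without Adipoq-F2-KO library 1 the ratios of Tlr2 and Cd14 were higher without overlap, and without Adipoq-F2-KO library 2 that of Nod1 was lower. The share of all tested genes was not taken for these subsets or for the other denominators.

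**Figure D4:**
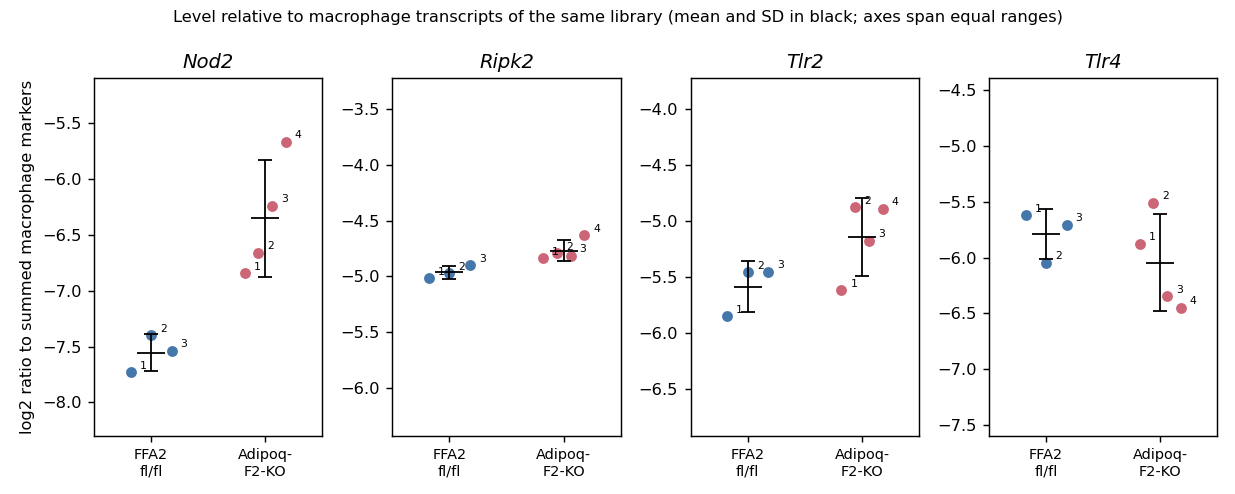
Log2 ratio of Nod2, Ripk2, Tlr2 and Tlr4 to the summed macrophage markers of the same library (y axis, each spanning an equal range), for 3 FFA2 fl/fl (blue) and 4 Adipoq-F2-KO libraries (red), with the mean and SD in black. Nod2 rose by 1.20 without overlap and Ripk2 by 0.19, while Tlr2 and Tlr4 overlap.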

How the data were processed

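Poly-A selected, stranded, paired-end RNA-Seq libraries of mature white adipocytes were analysed (3 FFA2 fl/fl, 4 Adipoq-F2-KO). Trimmomatic, STAR and featureCounts were the authors' tools for trimming, alignment and counting. The deposited values are whole counts per gene without normalization. Versions, strand and overlap options are not given in the sources used here. The submitters' processing notes name GRCm38 (mm10), but only 1460 of 52029 matched genes start where a GRCm38 annotation places them, so coordinates are those of the deposited table, build uncertain. Symbols were matched by identifier for 52029 of 57010 genes. Between 85.5% and 88.8% of counts from 1 to 49 were even, so both mates appear to have been counted.

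The counts were filtered with filterByExpr, TMM-normalized (factors 0.968 to 1.02) and tested with the quasi-likelihood test of edgeR 4.0.16 in R 4.3.3, genotype as the only term, adjusted over 17039 genes. The study used DESeq2, run here (1.42.0) as an alternative beside limma 3.58.1, other scalings and filters, a replicate block and leaving out each library. The tests were tried on simulated data. Exact permutation tests of a single value used all 35 assignments of the genotypes and the size of the difference in means. The chi-square per degree of freedom between libraries of a genotype was 22.7 to 92.6, so all 7 were kept as separate. All 10 genes are named, and from each pathway list the called genes and the gene with the smallest p, and from each cell type list the marker with the highest normalized CPM; further list genes named were chosen after their values were seen. Members, lists and rules were chosen with earlier results of these data known.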

Additional observations from a re-analysis of the deposited data

How the results depend on the processing

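The 10 genes kept the direction of their fold change under all 15 alternatives. The number called by edgeR was 1 (Nod2) and became 4 with DESeq2 (4.67% of its tested genes called higher) and 4 with edgeR on genes with at least 1 count (3.76% called higher), in both cases Nod2, Ripk2, Tlr2 and Cd14. It was 0 with limma voom, where 5 had an unadjusted p under 0.05 (17.3% of tested genes) and Nod2 an adjusted p of 0.0643. With 1 library left out it ranged from 0 to 3, against 0.0056% to 1.07% of tested genes called. The 3 were called without Adipoq-F2-KO library 1, where 1.07% of tested genes were called, 0.91% as higher. In the fits with 1 library left out, 4 to 6 of the 10 had an unadjusted p under 0.05 (11.4% to 19.3% of tested genes). For the 72 tested pathway genes the count of 2 became 6 with DESeq2 and 8 with the filter of at least 1 count, and ranged from 0 to 2 with 1 library left out, when 13 to 22 had an unadjusted p under 0.05. Over all genes, 173 calls became 890 with DESeq2, 1403 with the filter of at least 1 count, and 1 to 178 with 1 library left out. The causes were not tested. Of the 10 ratios to macrophage markers, 2 did not overlap, both higher (1.73% of tested genes), 1 with the mean log2 of the markers, and 2 to 4 with 1 library left out, 4 without Adipoq-F2-KO library 1. These were higher except Nod1, which was lower without Adipoq-F2-KO library 2. Against Adgre1 alone 2 did not overlap, Nod2 as higher and Myd88 as lower. Nod2 was among the ratios higher without overlap in each of these settings. The share of all tested genes without overlap was taken only for the summed markers with all 7 libraries. The counts in the other settings thus have no share to be set against and are a description.

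Same-numbered libraries of the genotypes did not deviate together (r of -0.02 to 0.03 over genes), so the numbers were not treated as pairs. With the number as a replicate block 2 of the 10 genes were called, Nod2 and Tlr2 (1.31% of tested genes, 1.12% higher). Counts of Ly96, Tlr7 and Tlr13, at 38 to 150 in a library, limit their precision.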
